A study of Mus musculus with 12 samples.

Results

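T follicular helper (Tfh) cells are the CD4+ T cells that help B cells in lymphoid follicles, and 7 genes of this lineage were followed here: Bcl6, Cxcr5, Tox, Tox2, Il21, Maf and Ascl2. The genes were taken by symbol from the per-library count files, by a rule that itself uses no measured value. The list was chosen with earlier results of these data known, so the counts of called genes below describe it and are not an independent test. All 7 were among the 40840 genes counted. Of these, 13570 had enough reads to be tested, including 6 of the 7 Tfh genes. Ascl2 did not pass the filter on low counts.

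Bcl6 encodes the transcriptional repressor that is required for Tfh cells to form. IL-6 signals through gp130 and STAT3 and, together with IL-21, is known to promote Bcl6 expression in activated CD4+ T cells, whereas IL-2 signals through STAT5 and opposes it. CXCR5, the receptor for the chemokine CXCL13, guides Tfh cells into follicles, where they give B cells help through IL-21 and costimulatory molecules.

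Donor OTII cells, which are CD4+ T cells with a transgenic receptor for ovalbumin, were transferred into WT or Il6-/- mice. The mice were then given 100 μg of house dust mite (HDM) extract and 5 μg of ovalbumin intranasally. Per the study, the extract itself was low in endotoxin, and lipopolysaccharide (LPS, an endotoxin) was added to it for all 4 groups. Per the study's methods, donor cells were naive splenic CD4+ cells, transferred into congenic recipients and sorted after staining for B220, CD4, CD44 and CD45.1. The study's list of strains gives the Il6-/- mice as B6.129S2-IL-6tm1Kopf/J and the OTII transgenic mice as being on the B6 background. The Il6 deficiency was in the recipient only, so donor cells could still make IL-6 and reads from Il6 do not check the labels. OTII cells were sorted from the mediastinal lymph nodes, although the sample labels give the tissue as blood, on Day 3 and Day 5 as labelled, and the deposited design text adds that the manuscript counts days from 0 rather than 1. There were 3 libraries in each of the 4 groups, WT and Il6-/- recipients on each day, and no age was given. The labels do not say whether the 3 libraries of a group came from separate or pooled mice, so the tests measure the spread between these libraries. The comparisons ask how the absence of IL-6 in the recipient changed Tfh genes in the responding T cells, and how that changed between the 2 days.

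The libraries held 16125947 to 26111657 reads on genes, with a median of 19727354. The share of reads assigned to a gene was 60.2 to 62.2% on Day 3 and 52.5 to 56.7% on Day 5, and its part in the comparisons between days was not tested. The 7 T cell identity genes, including Cd3e, Cd4 and Lck, summed to 4682 to 7614 CPM, the read count of a gene scaled to a library of 1000000 reads on genes, in every library. The 9 B cell markers summed to 5.50 to 11.9 CPM, with Ms4a1 and Ebf1 at 3 reads or fewer per library in at least 1 group. The 10 myeloid and dendritic cell markers summed to 11.7 to 53.3 CPM, with Itgax at 3 reads or fewer in every group. The 6 regulatory T cell markers summed to 216.5 to 305.3 CPM, with Ctla4 the highest in each group. The sum of 8 NK and CD8 T cell markers was higher in all 3 Il6-/- libraries than in all 3 WT libraries on Day 3, at 104.9 to 137 against 66.2 to 76.6 CPM, while Ncr1 and Klrk1 stayed at 3 reads or fewer in both groups.

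Promoters of Bcl6 and Il21 are shown because IL-6 acts through STAT3 and STAT factors bind the palindrome TTCNNNGAA. The RefSeq table of the GRCm38.p6 build held promoters for 4 of the 7 genes, Bcl6, Tox2, Il21 and Ascl2. The windows cover the 250 bases before each start site, on the reverse strand at chr16:23988853-23989102 for the upstream Bcl6 start, chr16:23981284-23981533 for the downstream Bcl6 start and chr3:37232637-37232886 for Il21, with TTCNNNGAA in capitals.
Bcl6, upstream start: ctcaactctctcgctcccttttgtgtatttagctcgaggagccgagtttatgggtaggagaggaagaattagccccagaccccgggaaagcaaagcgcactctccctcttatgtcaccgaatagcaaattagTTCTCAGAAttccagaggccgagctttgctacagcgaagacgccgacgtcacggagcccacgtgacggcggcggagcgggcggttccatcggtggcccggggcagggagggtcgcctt
Bcl6, downstream start: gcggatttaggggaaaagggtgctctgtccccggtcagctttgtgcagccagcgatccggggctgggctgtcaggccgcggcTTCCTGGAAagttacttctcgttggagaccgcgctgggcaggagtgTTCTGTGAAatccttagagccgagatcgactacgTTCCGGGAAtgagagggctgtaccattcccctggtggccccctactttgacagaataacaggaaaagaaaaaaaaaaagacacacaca
Il21: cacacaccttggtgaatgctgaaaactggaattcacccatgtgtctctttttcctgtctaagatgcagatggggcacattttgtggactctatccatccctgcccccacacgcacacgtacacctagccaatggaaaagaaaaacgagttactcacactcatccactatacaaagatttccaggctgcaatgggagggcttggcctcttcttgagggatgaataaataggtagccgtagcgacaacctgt
The upstream Bcl6 window held 1 match, TTCTCAGAA, which begins 118 bases before the start site. The downstream window held 3 matches, TTCCTGGAA, TTCTGTGAA and TTCCGGGAA, beginning 168, 122 and 88 bases before the start. A short stretch after this downstream start was not found in any GENCODE transcript of Bcl6, whereas that after the upstream start was. No match was present in the window of Il21, in that of Ascl2 or in the 5 windows of Tox2. The Tox2 windows are not 5 separate regions, since some overlap, such as those from 163225203 and 163225204 on chromosome 2. Parts of some also lie in Tox2 exons. Of all 32851 windows of this length in the table, 7.02% held at least 1 match, and 9 held 3 or more (0.0274%). The motif reads the same on both strands, so 1 search covers both. Neither the AP-1 motif TGANTCA nor the E-box CAGCTG was found in any window of these 4 genes, against 6.75% and 13.0% of all windows. A match describes the letters only and is not evidence of binding.

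On Day 3, OTII cells primed in Il6-/- recipients had less Bcl6, Cxcr5, Maf, Tox2 and Il21 mRNA than those primed in WT recipients, by 1.95-fold for Maf to 7.05-fold for Il21, while Tox did not pass the test. On Day 5, Tox2 was the only one of the 6 called, at 1.61-fold lower, and the median log2 fold change (log2FC) of the 6 genes was −0.05, against 0.01 for all tested genes. Called genes are those with a Benjamini-Hochberg FDR under 0.05 over all tested genes in edgeR's quasi-likelihood test. On Day 3, 5 of the 6 tested Tfh genes were called lower, where 6.19% of all tested genes were called lower in Il6-/-. With a further requirement of a 2-fold change, 4 of the 6 were called, against 1.81% of all genes. The median log2FC of the 6 genes on Day 3 was −1.30, against 0.01 for all tested genes. In 5 of the 7 genes, Tox and Ascl2 excepted, all 3 Il6-/- libraries lay below all 3 WT libraries, an ordering found in 15.7% of all tested genes. In sorted but bulk RNA, fewer cells expressing a gene and less RNA per cell cannot be told apart.

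**Figure D1:**
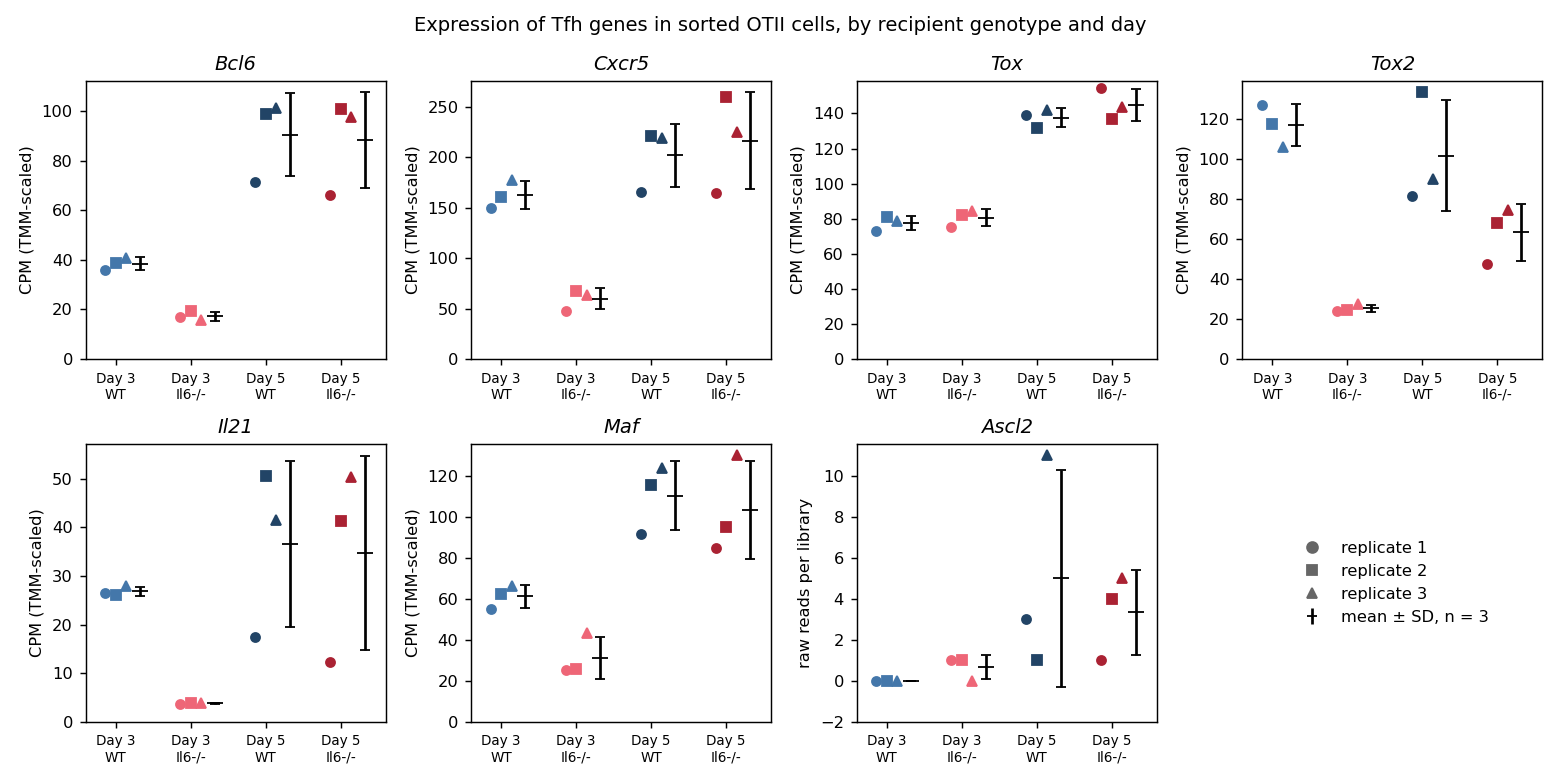
Level of each Tfh gene in the 12 libraries, by recipient genotype and day (x axis), as CPM scaled by the trimmed mean of M values on the y axis, or as raw reads for Ascl2. Points are libraries, with a symbol for each replicate number, and bars are the mean ± SD of 3 libraries. Bcl6, Cxcr5, Tox2, Il21 and Maf are lowest in Day 3 Il6-/- libraries, the genotypes overlap for Tox on each day, and replicate 1 is the lowest Day 5 library of both genotypes for Bcl6, Cxcr5, Tox2, Il21 and Maf.

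Bcl6 (chromosome 16, 23783802 to 23807602, reverse strand, GRCm39) was at 35.8, 38.9 and 40.8 CPM in the 3 Day 3 WT libraries. It was at 17.0, 19.3 and 15.7 CPM in the Day 3 Il6-/- libraries, each less than the lowest WT library. The mean was 38.5 ± 2.5 CPM (SD, n = 3) in WT and 17.3 ± 1.80 CPM in Il6-/-, a log2FC of −1.15 (SE 0.16, 95% interval −1.50 to −0.80, FDR = 3.8e-04 in edgeR). On Day 5, Bcl6 was at 71.3, 99.1 and 101.3 CPM in WT and at 66.2, 101.0 and 97.9 CPM in Il6-/-. These groups overlapped, with replicate 1 lowest in both, and the log2FC was −0.04 (95% interval −0.36 to 0.29, FDR = 0.94 in edgeR).

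Cxcr5 (chromosome 9, 44423083 to 44473174, reverse strand) was at 149.3, 160.7 and 177.1 CPM in Day 3 WT libraries. In Day 3 Il6-/- libraries it was at 47.7, 67.7 and 63.1 CPM, less than the WT libraries in every case. The log2FC was −1.45 (SE 0.16, FDR = 7.1e-05), with means of 162.4 ± 14.0 and 59.5 ± 10.5 CPM (SD, n = 3, edgeR). On Day 5, Cxcr5 was at 165.3, 220.5 and 219.1 CPM in WT and at 164.6, 259.7 and 224.7 CPM in Il6-/-. The Day 5 groups overlapped and the highest library was from an Il6-/- recipient, with a log2FC of 0.10 (95% interval −0.24 to 0.44, FDR = 0.79 in edgeR). Exons of Cxcr5 share 118 bases with Bcl9l on the opposite strand, and in unstranded counts reads from these bases cannot be assigned to one gene.

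Maf encodes a bZIP transcription factor, c-MAF, known to promote Il21 and Il4 expression in CD4+ T cells. It lies on chromosome 8, 116409632 to 116434579, on the reverse strand, with 117 exonic bases shared with Gm30712. Maf was at 55.1, 62.6 and 66.3 CPM in Day 3 WT libraries and at 25.1, 25.6 and 43.2 CPM in Day 3 Il6-/- libraries. The groups did not overlap, although Il6-/- replicate 3 stood above the other two. The log2FC was −0.97 (SE 0.20, 95% interval −1.39 to −0.54, FDR = 0.0047 in edgeR), and it was −1.27 without that library. On Day 5, Maf was at 91.7, 115.7 and 124.1 CPM in WT and at 84.9, 95.3 and 130.4 CPM in Il6-/-. These ranges overlapped, with a log2FC of −0.09 (95% interval −0.50 to 0.31, FDR = 0.84 in edgeR).

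Tox and Tox2 encode related HMG-box DNA-binding proteins that are highly expressed in Tfh cells, yet Tox did not pass the test between genotypes on either day and Tox2 passed it on both. Tox (chromosome 4, 6686353 to 6991644, reverse strand) was at 73.2, 81.0 and 78.9 CPM in Day 3 WT libraries and at 75.2, 82.3 and 84.4 CPM in Day 3 Il6-/- libraries. On Day 5 it was at 139.0, 131.7 and 142.1 CPM in WT and at 154.4, 136.6 and 143.5 CPM in Il6-/-. The genotypes overlapped on both days. The log2FC of Tox was 0.05 on Day 3 (95% interval −0.11 to 0.22, FDR = 0.73) and 0.07 on Day 5 (95% interval −0.09 to 0.24, FDR = 0.66). Tox shares 260 exonic bases with Gm11802.

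Tox2 (chromosome 2, 163045021 to 163166191, forward strand) was at 126.9, 117.5 and 106.1 CPM in Day 3 WT libraries. In Day 3 Il6-/- libraries it was at 24.1, 24.7 and 27.3 CPM, with no overlap between groups. Its log2FC of −2.20 (SE 0.18, FDR = 7.7e-06 in edgeR) was a 4.60-fold lower level and ranked 5th by p among the 6501 tested genes lower in Il6-/- on Day 3. On Day 5, Tox2 was at 81.2, 133.3 and 90.1 CPM in WT and at 47.3, 67.8 and 74.5 CPM in Il6-/-. The Il6-/- libraries again lay below all WT libraries, as in 11.0% of tested genes, and the log2FC was −0.68 (SE 0.17, 95% interval −1.05 to −0.31, FDR = 0.036 in edgeR). Tox2 was the 1 gene called of 6, where 3.35% of all tested genes were called lower on Day 5. With replicate number as a block, 855 rather than 454 genes (6.3%) were called lower on Day 5, and Tox2 kept its call (log2FC −0.68, FDR = 0.0024). The Day 5 call was lost when only the Day 5 libraries were fitted (FDR = 0.097) and without single libraries, including WT replicate 2 (log2FC −0.44, FDR = 0.15) and Il6-/- replicate 1 (log2FC −0.51, FDR = 0.067).

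Il21 encodes the cytokine by which Tfh cells drive B cell responses, and it had the largest fold difference of the 6 genes on Day 3. Il21 (chromosome 3, 37276908 to 37286785, reverse strand) was at 26.5, 26.2 and 27.9 CPM in Day 3 WT libraries. In Day 3 Il6-/- libraries it was at 3.70, 3.82 and 3.89 CPM, from 70 to 82 reads a library. Replicates lay close together in both groups, and the log2FC was −2.82 (SE 0.45, 95% interval −3.78 to −1.86, FDR = 8.8e-04 in edgeR). On Day 5, Il21 was at 17.5, 50.6 and 41.4 CPM in WT and at 12.2, 41.4 and 50.4 CPM in Il6-/-. Within each genotype replicate 1 was under the other two by more than 2-fold, and the genotypes overlapped (log2FC −0.07, 95% interval −0.89 to 0.74, FDR = 0.94 in edgeR). That interval is wide, so the Day 5 data do not show that the genotypes were alike. The 4 groups share 1 estimate of the spread per gene, and with both Day 5 replicate 1 libraries left out, a choice made after seeing the data, the SE of the Day 3 difference was 0.13 and the log2FC stayed at −2.82.

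Ascl2 encodes a basic helix-loop-helix factor known to induce Cxcr5 early in Tfh differentiation, and it was at the edge of detection. Its raw counts (chromosome 7, 142520564 to 142523006, reverse strand) were 0, 0 and 0 reads in Day 3 WT libraries and 1, 1 and 0 in Day 3 Il6-/- libraries. On Day 5 they were 3, 1 and 11 in WT and 1, 4 and 5 in Il6-/-. The sums of 0 and 2 reads on Day 3 have 95% Poisson intervals of 0 to 3.69 and 0.242 to 7.23, and those of 15 and 10 on Day 5 have intervals of 8.40 to 24.7 and 4.80 to 18.4, for counting error only. As a fixed floor, a count of 0 in a library was read as up to 3 reads, or 0.117 to 0.176 CPM at these depths. This floor was set apart from the 95% intervals above. No difference between genotypes was detectable at this depth.

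Per length of exonic sequence, the order of the levels changed with genotype on Day 3. Expressed as RPKM, the CPM divided by the exonic length in kilobases, the Day 3 WT means were 48.7 for Cxcr5, 32.0 for Tox2, 10.0 for Tox, 6.61 for Maf, 5.74 for Bcl6 and 5.10 for Il21. In Day 3 Il6-/- libraries, Cxcr5 at 17.9 RPKM still led, followed by Tox at 10.4, Tox2 at 6.96, Maf at 3.38, Bcl6 at 2.58 and Il21 at 0.723 RPKM. Tox2 therefore stood above Tox in WT and below it in Il6-/- recipients on Day 3. On Day 5, Cxcr5 had the highest level in both genotypes, at 60.5 and 64.9 RPKM, and Tox2 was at 27.8 RPKM in WT and 17.3 RPKM in Il6-/-, where Tox was at 18.7 RPKM.

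The genotype difference itself changed between days for 4 of the 6 tested genes. The difference on Day 3 minus that on Day 5 was −2.74 for Il21 (FDR = 0.018), −1.55 for Cxcr5 (FDR = 0.0035), −1.52 for Tox2 (FDR = 0.0053) and −1.12 for Bcl6 (FDR = 0.014), on the log2 scale in edgeR. Of all tested genes, 1.80% were called more negative on Day 3 by this test. The value for Maf was −0.87 (SE 0.27, FDR = 0.081) and that for Tox was −0.02 (FDR = 0.95). With replicate number as a block, Maf was also called (−0.90, FDR = 0.0030), making 5 of the 6, and 717 rather than 244 of all tested genes (5.28%) were called more negative. The median over the 6 genes was −1.32, against −0.00 for all genes. The call for Il21 was lost with limma-voom (log2 −2.62, FDR = 0.090) and without Day 3 Il6-/- replicate 1 or replicate 2 (FDR = 0.056 in each). The value for Maf passed without Day 3 Il6-/- replicate 3 (log2 −1.18, FDR = 0.016) and without Day 5 Il6-/- replicate 1 (log2 −0.996, FDR = 0.044).

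**Figure D2:**
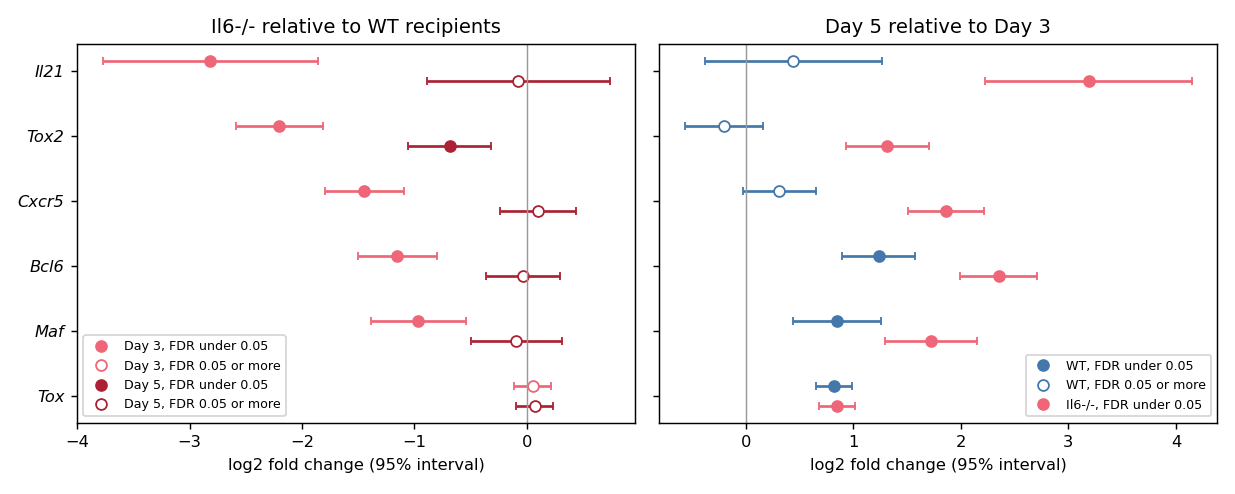
Log2 fold changes of the 6 tested Tfh genes (x axis) with 95% intervals from edgeR, for Il6-/- against WT recipients on each day (left) and for Day 5 against Day 3 in each genotype (right). Filled points have an FDR under 0.05. On the left the Day 3 values of 5 genes lie at or below −0.97 and the Day 5 values near 0 except for Tox2, and on the right all 6 Il6-/- values are above 0 with Il21 farthest out at 3.19.

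Between Day 3 and Day 5, the Tfh genes rose in OTII cells from Il6-/- recipients. All 6 tested genes were called higher on Day 5 in Il6-/- recipients, where 30.4% of all tested genes were. The log2FC was 3.19 for Il21 (FDR = 2.1e-05), 2.35 for Bcl6 (FDR = 2.8e-08), 1.86 for Cxcr5 (FDR = 2.1e-07), 1.72 for Maf (FDR = 2.8e-06), 1.32 for Tox2 (FDR = 1.5e-05) and 0.84 for Tox (FDR = 3.0e-07). In WT recipients 3 of the 6 were called higher, where 29.5% of all tested genes were: Bcl6 (log2FC 1.24, FDR = 9.1e-06), Maf (0.85, FDR = 0.0015) and Tox (0.82, FDR = 4.7e-07). Those not called in WT were Cxcr5 at 0.31 (FDR = 0.11), Il21 at 0.44 (FDR = 0.34) and Tox2 at −0.20 (FDR = 0.32). Median log2FC of the 6 genes was 1.79 in Il6-/- and 0.63 in WT recipients, against 0.09 for all genes in both. With both Day 5 replicate 1 libraries left out, Il21 (0.78, FDR = 1.1e-04) and Cxcr5 (0.44, FDR = 0.0090) were also called higher in WT, making 5 of 6. Without WT Day 5 replicate 2, Tox2 was called lower on Day 5 in WT (−0.45, FDR = 0.022). Marker genes of other kinds also differed between days. All 7 T cell identity genes were called higher on Day 5 in both genotypes, with a median log2FC of 0.58 in Il6-/- and 0.47 in WT recipients. In Il6-/- recipients 4 of 7 tested myeloid markers (Tyrobp, Csf1r, Siglech and Cd68) and 2 of 4 tested B cell markers (Pax5 and Cd79a) were also higher on Day 5. In WT recipients 2 of the 7 (Siglech and Csf1r) and 1 of the 4 (Cd79a) were. The summed myeloid markers were at 14.1 to 19.1 CPM on Day 3 and 22.1 to 39.3 CPM on Day 5 in Il6-/- recipients, and the B cell markers at 6.79 to 8.58 and 10.5 to 11.9 CPM. In WT recipients the myeloid sum was at 11.7 to 23.4 and 19.8 to 53.3 CPM, and the B cell sum at 5.50 to 9.12 and 7.94 to 10.6 CPM. The part of these markers in the rise of the Tfh genes was not tested.

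Across the 4 groups, Day 3 Il6-/- libraries were the lowest for 5 genes, below every library of the other groups for Bcl6, Cxcr5, Tox2, Il21 and Maf, an ordering found in 9.79% of all tested genes. Day 5 Il6-/- libraries were above all Day 3 WT libraries for Bcl6, Tox and Maf, overlapped them for Cxcr5 and Il21, and were below them for Tox2. Of all tested genes, 30.9% lay above and 30.4% below in this comparison. The Day 5 WT and Day 3 WT libraries overlapped for Cxcr5, Tox2 and Il21.

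The 6 genes also differed in how alike their patterns were over the 12 libraries. Likeness was measured as the root mean square (RMS) difference of centred log2 CPM, which is 0 for identical patterns. Cxcr5 and Maf were the closest pair at 0.304, followed by Bcl6 and Maf at 0.356, and Tox and Il21 were the farthest apart at 1.23. Of all tested genes, the closest to Bcl6 were Pear1 at 0.223, Slc9a9 at 0.228 and Faah at 0.228, and the closest to Maf were Cd53 at 0.176, S100a11 at 0.198 and Tmem71 at 0.199. For Il21 they were H2-Q2 at 0.314, Tigit at 0.34 and Itga7 at 0.479, for Tox2 Rnase4 at 0.239, Nav2 at 0.335 and Tnfrsf25 at 0.347, and for Tox the signalling adaptor gene Traf1 at 0.0609, Stx4a at 0.0698 and Wbp1 at 0.081. For Cxcr5, C030034L19Rik at 0.231 and Baiap3 at 0.233 were among the 3 closest.

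Other genes of the Tfh pathway were read from the same fit. Of 16 tested genes for surface and help molecules, 5 were lower and 1 was higher in Il6-/- recipients on Day 3, against 6.19% and 7.52% of all tested genes. The median log2FC of the list was −0.18, against 0.01 for all tested genes. Icos, the costimulatory receptor needed for Tfh cells, was at 617.6 ± 25.3 CPM (SD, n = 3) in WT and fell to 301.3 ± 28.7 CPM without recipient IL-6 (log2FC −1.04, FDR = 9.6e-06). Tigit, an inhibitory receptor found on Tfh cells, fell from 53.5 ± 7.35 to 7.65 ± 2.06 CPM (log2FC −2.80, FDR = 0.0016). P2rx7, an ATP-gated channel that limits Tfh cell numbers, was also lower (log2FC −0.76, FDR = 6.9e-04), and the gene for OX40, Tnfrsf4, was higher (log2FC 0.55, FDR = 0.0021). Btla (log2FC −0.38) and Sh2d1a (log2FC −0.43), which encodes the SLAM adaptor SAP and shares exonic bases with Tenm1, were the other lower genes and were named after their values were seen. The gene for PD-1, Pdcd1, had a log2FC of 0.10 (FDR = 0.73) on Day 3 and 0.49 (FDR = 0.085) on Day 5, and the CD40 ligand gene Cd40lg had one of 0.02 (FDR = 0.95) on Day 3. None of the 16 was called on Day 5, and Cxcl13 did not pass the filter on low counts. For 4 of them, Icos, P2rx7, Tigit and Btla, the genotype difference was called more negative on Day 3 than on Day 5, against 1.80% of all tested genes.

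Of 15 genes for transcription factors and cytokine signalling that promote Tfh cells, 4 were lower and none was higher on Day 3, against 6.19% and 7.52% of all tested genes, with a median log2FC of −0.17 against 0.01. These were Pou2af1, which encodes a coactivator of octamer-binding factors (log2FC −1.25, FDR = 4.4e-04), the IL-6 receptor gene Il6ra (log2FC −0.49, FDR = 0.0022), and Lef1 (log2FC −0.42) and Tcf7 (log2FC −0.32), which encode factors upstream of Bcl6. Stat3, whose exons overlap those of Stat5a, had a log2FC of −0.16 (FDR = 0.12). On Day 5, Il6ra (log2FC −0.45, FDR = 0.0096) and Batf (log2FC −0.26, FDR = 0.048) were lower and Il12rb1 was higher (log2FC 0.51, FDR = 0.047), where 3.35% of all tested genes were called lower and 1.27% higher.

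Of 12 genes for factors that oppose Tfh differentiation, 3 were higher and 2 were lower in Il6-/- recipients on Day 3, against 7.52% and 6.19% of all tested genes, with a median log2FC of 0.18 against 0.01. Tbx21, which encodes the Th1 factor T-bet, rose from 2.56 ± 0.210 to 14.4 ± 2.14 CPM (log2FC 2.49, FDR = 8.7e-05). Il2ra, the gene for the α chain of the IL-2 receptor, rose from 26.8 ± 9.36 to 80.2 ± 17.1 CPM (log2FC 1.59, FDR = 9.7e-04), and Bhlhe40 was higher as well (log2FC 1.11, FDR = 0.031), although it shares exonic bases with 0610040F04Rik. Foxo1 (log2FC −0.28) and Klf2 (log2FC −0.86) were lower, the latter named after its value was seen. Prdm1, which encodes BLIMP-1, the repressor that antagonises BCL6, had a log2FC of 0.78 (FDR = 0.24). On Day 5, Il2rb was higher (log2FC 0.28, FDR = 0.037), while Id2 (log2FC −0.70, FDR = 0.011) and Foxo1 (log2FC −0.35, FDR = 0.029) were lower, against the Day 5 shares of 1.27% and 3.35% of all tested genes. Of the 5 tested NK and CD8 T cell markers, 2 were called higher in Il6-/- on Day 3, Nkg7 (log2FC 2.64) and Klrb1c (log2FC 2.11). Those not called were Cd8b1 (log2FC 0.25, FDR = 0.19), Cd8a (log2FC 0.33, FDR = 0.82) and Eomes (log2FC 1.80, FDR = 0.057). On Day 5, Nkg7 was higher (log2FC 1.92, FDR = 0.0022) and Klrb1c was lower (log2FC −0.60, FDR = 0.0497 in edgeR). Among 4 tested B cell markers, Pax5 was called lower on Day 3 (log2FC −2.26, FDR = 0.039), at 22 reads or fewer a library. Among 6 regulatory T cell markers, Il2ra and Il10 (log2FC 2.16, FDR = 0.032) were higher and Ikzf2 (log2FC −0.44, FDR = 0.013) was lower. Cd28 (log2FC −0.48, FDR = 0.0018) was the only T cell identity gene called, and no myeloid marker was. The part of all these markers in the Day 3 differences was not tested.

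**Figure D3:**
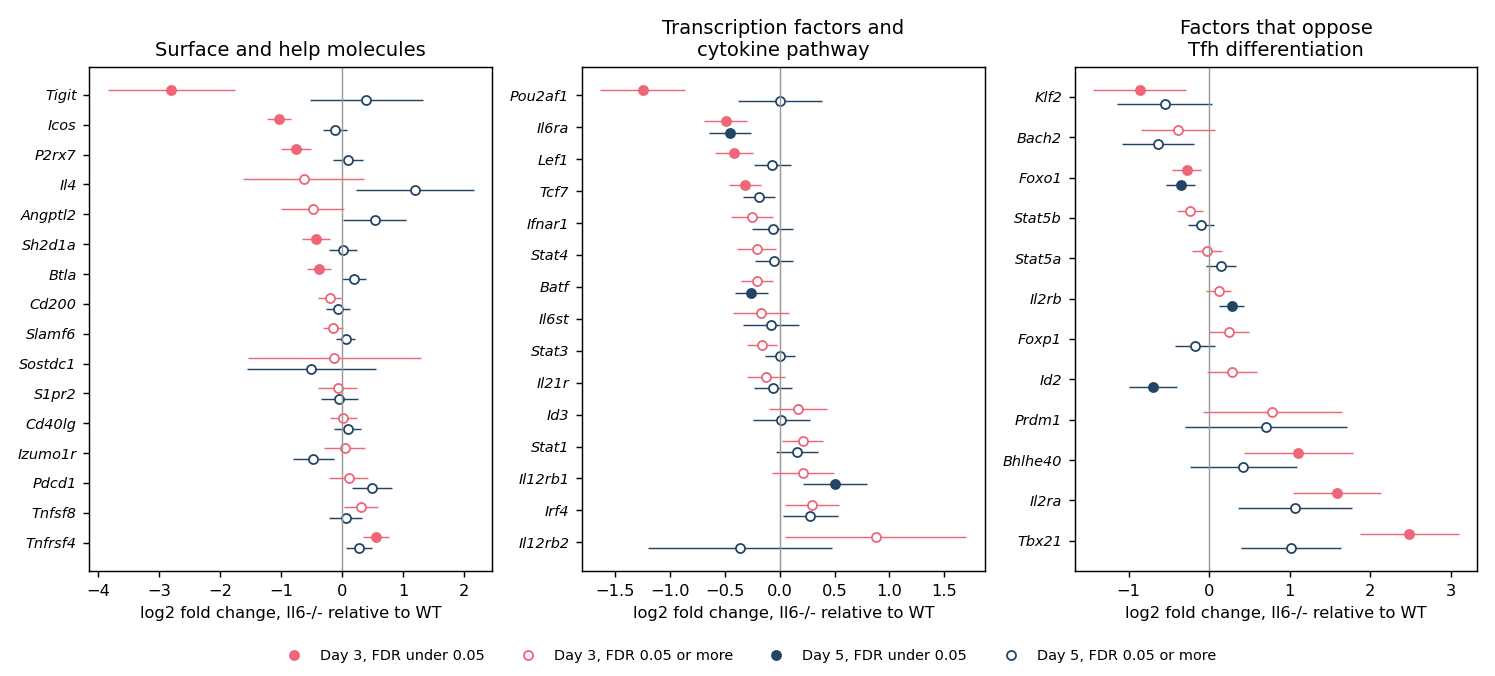
Log2 fold changes with 95% intervals (x axis) for Il6-/- against WT recipients on Day 3 and Day 5, for the tested genes of 3 lists: surface and help molecules (16 genes), transcription factors and cytokine pathway (15) and factors that oppose Tfh differentiation (12). Filled points have an FDR under 0.05. Tigit at −2.80 and Tbx21 at 2.49 are the extremes on Day 3, and most Day 5 points are open.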

How the data were processed

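RNA-seq was performed on 12 libraries of sorted OTII cells. Per the study's methods and the submitters' processing notes, the authors made the counts from single-end reads by trimming (Trim Galore 0.4.4), alignment by STAR (2.5.2a) to the GRCm39 genome and unstranded counting per gene symbol by HTSeq (0.6.1p1). The deposited counts are raw, and 37.8 to 47.5% of reads per library fell in HTSeq summary rows, which were left out. A deposited log2 CPM table was not used here.

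Genes were filtered by filterByExpr, scaled by trimmed mean of M values (TMM; factors 0.944 to 1.06) and fitted by edgeR (4.0.16, R 4.3.3) quasi-likelihood over all 12 libraries with 1 coefficient per group, giving 13570 tested genes (median biological coefficient of variation 0.132). FDR values are Benjamini-Hochberg adjusted over these genes, an SE is the log2FC over the root of F, and intervals are 95%. CPM values are TMM-scaled. RPKM values use GENCODE vM39 exonic lengths. The code was tested on simulated data. Every pair of replicates differed by more than sampling noise.

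The Tfh genes and the other lists were chosen with earlier results of these data known. Named in the text are all 7 Tfh genes, of each other list up to 4 called genes per genotype comparison by smallest p with those needed as not called (others are marked as named after their values were seen), the 3 nearest patterns per gene, 1 of which is not reported here, and the most abundant markers. Alternatives were other scalings, filters, DESeq2 (1.42.0), limma-voom (3.58.1), fewer groups, a replicate block and leaving out libraries. Replicate numbers come from the sample titles. The deviations of same-numbered WT and Il6-/- libraries from their group means correlated at 0.129 to 0.243 on Day 5, so the numbers may pair the Day 5 libraries. The reported fit does not use this pairing, and results with replicate number as a block are given as an alternative.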

Additional observations from a re-analysis of the deposited data

Results flagged for a closer look

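For 4 Tfh genes the difference between Il6-/- and WT recipients was not the same on Day 3 and Day 5, by the interaction term of the edgeR fit. The log2 difference of differences was −2.74 for Il21, −1.55 for Cxcr5, −1.52 for Tox2 and −1.12 for Bcl6. In all 4, the 3 Day 3 Il6-/- libraries lay below the 3 Day 3 WT libraries, and on Day 5 the genotypes overlapped for Il21, Cxcr5 and Bcl6 but not for Tox2.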

How the results depend on the processing

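Of the 19 differences called among the Tfh genes, 17 kept their direction and an FDR under 0.05 under every alternative run. The exceptions were Tox2 on Day 5 and the interaction for Il21. Of 624 single-gene values under the alternatives, 584 kept their direction and side of the threshold, 11 lost and 13 gained a call, and 16 changed sign, none of these with an FDR under 0.05. The number of Tfh genes called on Day 5 was 0 rather than 1 with only the Day 5 libraries and with the 2-fold rule, and 0 to 1 when each library was left out in turn, with an FDR for Tox2 of 0.0508 without Day 3 WT replicate 2, 0.0504 to 0.0553 without a Day 3 Il6-/- library and 0.0865 without Day 5 Il6-/- replicate 2. The number called between days in WT, 3 in the reported fit, was 7 with no filter on low counts, where Ascl2 was tested and Tox2 was lower, 5 with both Day 5 replicate 1 libraries left out and 1 with the 2-fold rule. Without scaling, the log2FC was −0.0012 for Tox on Day 3 and 0.0087 for Bcl6 on Day 5. With both Day 5 replicate 1 libraries left out, the interaction for Tox was 0.022. Leaving out each library in turn, the Day 5 log2FC ranged from −0.18 to 0.14 for Bcl6, −0.024 to 0.26 for Cxcr5, −0.45 to 0.33 for Il21 and −0.29 to 0.031 for Maf, and the interaction for Tox from −0.12 to 0.029. The interaction for Maf was called with DESeq2 (−0.90, FDR = 0.020) and with no filter. In WT between days, with no filter, Cxcr5 (0.24, FDR = 0.041), Il21 (0.37, FDR = 0.024) and Tox2 (−0.27, FDR = 0.034) were called, and Cxcr5 also without Day 5 WT replicate 1 (0.43, FDR = 0.038). The causes were not tested.

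Same-numbered libraries correlated at 0.0325 to 0.0599 on Day 3, and 12 of 12 libraries correlated best with their own number within a day, a hint from the data and not the design. The 12 are not separate observations, since deviations within a group cancel. On Day 3, WT replicate 3 had 0.0325 with its own number against 0.0306 with Il6-/- replicate 1. With the replicate block, 1564 genes rather than 668 were called in the interaction, which included Maf (−0.90, FDR = 0.0030), and Cxcr5 was called between days in WT (0.30, FDR = 0.014). Between days the block ties same-numbered Day 3 and Day 5 libraries. In WT their deviations correlated at 0.0707, −0.0399 and −0.0447, so the data do not show such a pairing. The block changed no other call of these genes. Over all genes, calls on Day 5 were 626 in the reported fit, 1127 with DESeq2, 1397 with no filter and 359 with only the Day 5 libraries, and in the interaction 1132 with DESeq2 and 1300 with no filter. Without scaling, the share of calls that were higher in Il6-/- was 39.3% against 54.9% on Day 3 and 40.8% against 27.5% on Day 5, that of positive calls in the interaction was 35.2% against 63.5%, that of higher calls between days in Il6-/- recipients was 60.4% against 50.2%, and the median log2FC of all genes between days in Il6-/- recipients was 0.24 rather than 0.09. Among the 7 genes, depth limits Ascl2, at 0 to 11 reads a library.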

Other observations

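Of 12 genes that BCL6 or ASCL2 are known to repress, 3 were higher and 3 were lower in Il6-/- recipients on Day 3, against 7.52% and 6.19% of all tested genes, with a median log2FC of 0.20 against 0.01. The higher genes were the chemokine receptor genes Cxcr3 (log2FC 1.17, FDR = 0.0091) and Ccr6 (log2FC 0.79, FDR = 0.0038), and the IL-7 receptor gene Il7r (log2FC 0.62, FDR = 0.017). Exons of Ccr6 share bases with Gm33799, and in unstranded counts reads from these bases cannot be assigned to one gene. S1pr1, which encodes the receptor by which T cells leave lymph nodes, was lower (log2FC −1.08), as were Selplg (log2FC −0.38) and Klf2 (log2FC −0.86), both named after their values were seen. On Day 5, Id2 was the 1 gene of the 12 called, and it was lower (log2FC −0.70, FDR = 0.011 in edgeR). Klf2, Id2 and Prdm1 stand in this list and in that of factors that oppose Tfh differentiation.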
